A study of Mus musculus with 94 samples.

Results

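Procr-expressing stem cells were compared with Procr-low stem cells among 94 single mouse haematopoietic stem cells. The groups were chosen by the measured level of Procr in each cell. A cell was called Procr-expressing when Procr was at 5 TPM or more (TPM, a length-corrected share of the transcripts in a library), which held for 24 of the 94 cells, and the other 70 cells were called Procr-low. All cells were C57BL/6 and labelled as stem cells derived from fetal liver, which had been in transplanted mice for 6 months. They were sorted from crushed hindlimb bone marrow as Cd45.2-positive, lineage-negative cells carrying c-Kit, Sca-1 and Cd150 and lacking Cd48. The labels gave 48 cells as Ski-WT and 46 as Ski-KO, and Ski encodes a co-repressor of TGF-beta signalling. They do not say which part of Ski was removed, when, or in which cells, and they name no recipient or donor animal for any cell. Each genotype was therefore 1 sample, cells were not used as replicates, and no p-value is given.

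Procr encodes the endothelial protein C receptor, a surface glycoprotein that holds protein C so that thrombin bound to thrombomodulin can activate it. Activated protein C then signals through protease-activated receptors, of which F2r encodes the founding member. In bone marrow, surface Procr is used to enrich for long-term repopulating stem cells, which divide rarely, and it is also present on endothelial cells.

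The level of Procr chose the groups, so its difference is a description and no finding. Among the 16 Procr-expressing Ski-WT cells, Procr ranged from 14.4 to 2485 TPM with a median of 87.9 TPM. The 8 Procr-expressing Ski-KO cells ranged from 10.8 to 1177 TPM with a median of 398.4 TPM. The ranges of the genotypes overlapped almost fully. Just above the limit lay cells at 10.8 and 12.2 TPM, and just below it lay cells at 3.79 and 1.85 TPM. Of the 70 Procr-low cells, 61 were listed at 0 and 9 lay between 0 and the limit. In a library from 1 cell, a value of 0 can also mean that the transcript was missed, so Procr-low does not mean free of the transcript or of the protein.

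**Figure D1:**
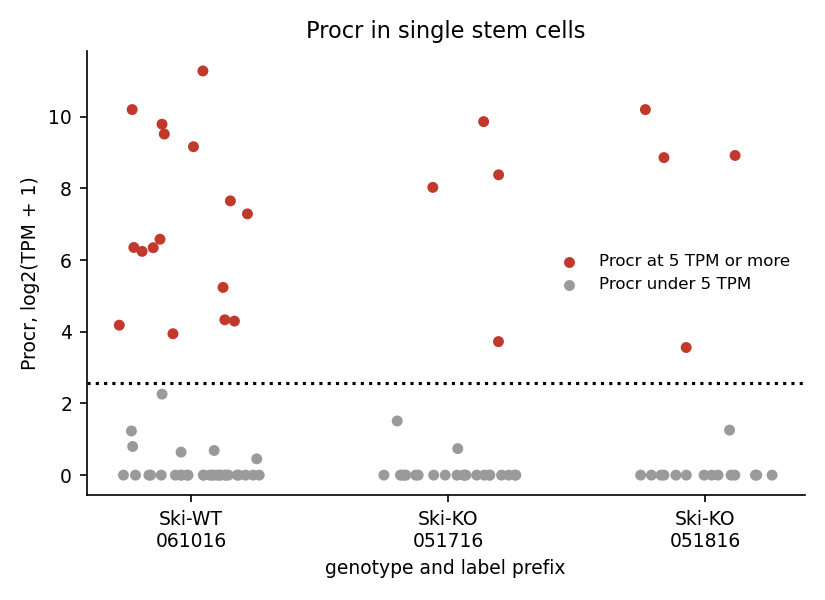
Procr in each of the 94 cells, as log2(TPM + 1), by genotype and label prefix, with red points for the 24 Procr-expressing and grey points for the 70 Procr-low cells. The dotted line marks 5 TPM, and no cell lies between 3.79 and 10.8 TPM.

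Procr-expressing cells made up 33.3% of the Ski-WT cells (16 of 48, exact 95% binomial interval 20.4% to 48.4%) and 17.4% of the Ski-KO cells (8 of 46, 7.82% to 31.4%). The intervals overlapped, and like all intervals here they cover counting error only. The Ski-KO cells came under the label prefixes 051716 and 051816, whose shares were 14.8% (4 of 27) and 21.1% (4 of 19). All Ski-WT cells had the prefix 061016, so prefix and genotype cannot be told apart. Ski-WT cells supplied 66.7% of the Procr-expressing group and 45.7% of the Procr-low group. Each difference in mean level below was for this reason taken within a genotype, while shares of 24 and 70 cells pool the genotypes.

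The number of genes detected per cell also differed, though not in the same direction everywhere. Procr-expressing cells had a median of 3428.5 genes above 0 (range 2906 to 4532) and Procr-low cells 3668 (2326 to 5213). In Ski-WT the medians were 3385.5 and 3762, and in Ski-KO they were 3587.5 and 3353. Within Ski-KO the direction depended on the prefix, with 3960 against 3179 genes in 051716 and 3399 against 3705 in 051816. Counting only genes at 5 TPM or more, no Procr-expressing cell exceeded 3060 genes, while 10 Procr-low cells did, and the highest reached 3750. Among the 24 Procr-expressing cells, Procr level and genes at 5 TPM or more had a Spearman correlation of -0.11, given as a description over cells of which many share a genotype and a prefix.

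Genes were compared where at least 20% of the 94 cells had a value above 0, which held for 6519 genes. For each, the mean log2(TPM + 1) of Procr-low cells was subtracted from that of Procr-expressing cells within each genotype, and the 2 differences were averaged with equal weight. A gene was called higher or lower when this average was at least 1 in size and both genotypes shared its sign. By this rule 362 genes (5.55%) were higher and 643 (9.86%) were lower in Procr-expressing cells. The median over all 6519 genes was -0.10. The 2 genotypes, which share no cells, gave nearly unrelated differences gene by gene, with a Pearson correlation of 0.07 across genes, which are not independent replicates. They had the same sign for 53% of the genes. Of 700 genes that differed by at least 1 in both genotypes, 391 did so in the same direction (126 higher, 1.93%, and 265 lower, 4.07%) and 309 (4.74%) in opposite directions. A single gene past the limit is thus weakly supported here, and groups of genes are described by their counts beside these background shares.

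**Figure D2:**
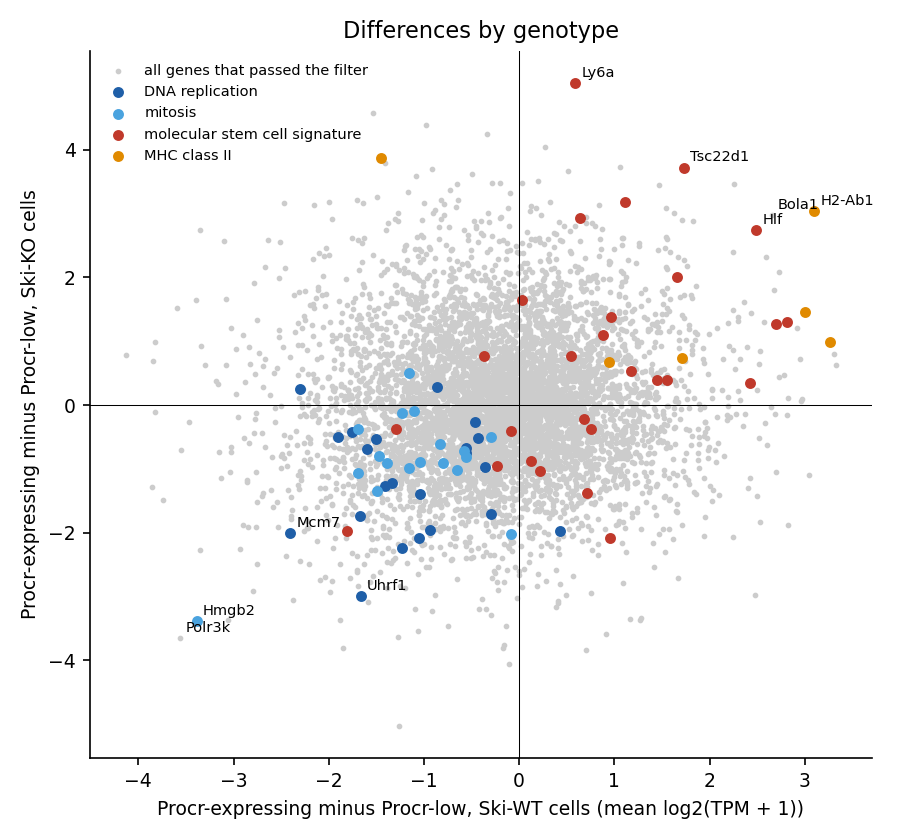
Each point is 1 of the 6519 genes, with its Procr-expressing minus Procr-low difference in mean log2(TPM + 1) in Ski-WT cells on the x axis and in Ski-KO cells on the y axis. Grey points form a round cloud (Pearson correlation 0.07), while the replication and mitosis genes (blue) lie mostly at the lower left.

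Genes of DNA replication were lower in Procr-expressing cells, and none of them was higher. Of 22 members that passed the filter, 13 (59.1%) were lower against 9.86% of all genes, and the list had a median of -1.12 against -0.10. The median was -1.14 in Ski-WT and -1.10 in Ski-KO, and 19 of the 22 members were below 0 in both genotypes. Members of the mitosis list followed the same direction, with 8 of 18 (44.4%) lower, 0 higher, a median of -0.91 and 17 members below 0 in both genotypes. The replication list holds the Mcm helicase, the Gins complex and their partners, and the mitosis list holds genes of chromosome condensation, the spindle and its checkpoint.

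Uhrf1, which brings the maintenance methyltransferase to newly copied DNA, was the member of the replication list with the largest difference. In Ski-WT its lowest, median and highest log2(TPM + 1) were 0, 0 and 8.87 in Procr-expressing cells and 0, 0.14 and 8.97 in Procr-low cells. In Ski-KO they were 0, 0 and 0.62 against 0, 0.39 and 9.25. Ranges overlapped in both genotypes, but in Ski-KO no Procr-expressing cell had more than a trace. Uhrf1 reached 5 TPM in 2 of 24 Procr-expressing cells (8.33%, interval 1.03% to 27%) and in 28 of 70 Procr-low cells (40%, 28.5% to 52.4%), and its average difference was -2.33. Mcm7, a subunit of the replicative helicase, had -2.21, with 6 of 24 cells (25%, 9.77% to 46.7%) against 33 of 70 (47.1%, 35.1% to 59.4%). The intervals for Mcm7 overlap. Mcm5 of the same helicase had -1.74 and Gins2, which helps to activate it, had -1.71.

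Promoter windows of the replication genes were searched for a motif. The search was chosen after these differences were seen, and it looked for the E2F-type motifs TTTCCCGC, TTTGGCGC and TTTCGCGC on both strands in the 250 bases before each RefSeq start site. E2F factors are known to drive replication genes at the entry into S phase. A motif was found for 6 of the 18 replication genes that matched the promoter table (33.3%), 1 of 16 mitosis genes (6.25%), 0 of 21 stem cell signature genes, and 188 of 4973 matched genes that passed the filter (3.78%). Over all 27025 genes of the table the share was 1.78%. The windows of Uhrf1 and Mcm5 are shown as examples of genes called lower that hold the motif. Capitals mark the motif matches, which overlap in Mcm5, and positions are those of RefSeq on GRCm38.p6. Uhrf1 lies at chr17:56304063-56304312 on the plus strand and Mcm5 at chr8:75109259-75109508 on the plus strand.
Uhrf1: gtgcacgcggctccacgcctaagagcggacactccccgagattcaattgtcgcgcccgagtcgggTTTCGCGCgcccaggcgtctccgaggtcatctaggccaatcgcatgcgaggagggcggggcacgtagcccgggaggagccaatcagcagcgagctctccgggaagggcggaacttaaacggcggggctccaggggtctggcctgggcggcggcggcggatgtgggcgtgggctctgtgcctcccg
Mcm5: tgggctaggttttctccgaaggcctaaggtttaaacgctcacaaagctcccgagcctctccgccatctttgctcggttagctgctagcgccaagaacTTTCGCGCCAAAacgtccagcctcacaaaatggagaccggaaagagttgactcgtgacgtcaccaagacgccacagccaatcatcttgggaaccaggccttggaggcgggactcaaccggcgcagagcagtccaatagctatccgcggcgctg
A match is a description of the letters and not evidence of binding in these cells. The shares describe the gene lists and say nothing about a difference between the Procr groups. Of the 6 replication genes with a motif, Uhrf1, Mcm5 and Mcm7 were called lower and the others were not. Cdc6 had an average difference of -0.61 and Pola1, the catalytic subunit of DNA polymerase alpha, had -0.65. Mcm6, whose window holds the motif 3 times, differed by -2.30 in Ski-WT and by 0.25 in Ski-KO. Replication genes with and without a motif were thus both among the 13 lower genes of the list.

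Hmgb2, a chromatin protein abundant in dividing cells, was the mitosis member with the largest difference and 1 of the 2 lowest genes that the naming rule took. In Ski-WT its lowest, median and highest values were 0, 1.98 and 8.46 in Procr-expressing cells and 0, 6.10 and 10.05 in Procr-low cells. In Ski-KO they were 0, 0.76 and 8.76 against 0, 6.50 and 10.02. The ranges overlapped while the medians lay far apart. Its difference was -3.39 in each genotype, -2.83 in prefix 051716 and -3.93 in prefix 051816. The naming rule requires the same sign in both genotypes and all prefixes, so this agreement is fixed by the choice. Hmgb2 reached 5 TPM in 11 of 24 Procr-expressing cells (45.8%, 25.6% to 67.2%) and 56 of 70 Procr-low cells (80%, 68.7% to 88.6%).

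Mki67, the gene of the Ki-67 proliferation antigen, was detected in a minority of Procr-low cells. It reached 5 TPM in 0 of 24 Procr-expressing cells, which allows a share of up to 12.5%, and in 15 of 70 Procr-low cells (21.4%, interval 12.5% to 32.9%). The highest Procr-expressing values were 0.16 in Ski-WT and 1.73 in Ski-KO on the log2 scale, against 8.17 and 9.37 among Procr-low cells. Most Procr-low cells were under 5 TPM as well, with medians of 0 and 0.04. The limit of 12.5% meets the lower end of the Procr-low interval, and the exact interval for 0 of 24 cells (0% to 14.2%) overlaps it. Bub1b, a spindle checkpoint kinase, had a difference of -1.38, and Top2a, which untangles replicated chromosomes, had -1.15.

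**Figure D3:**
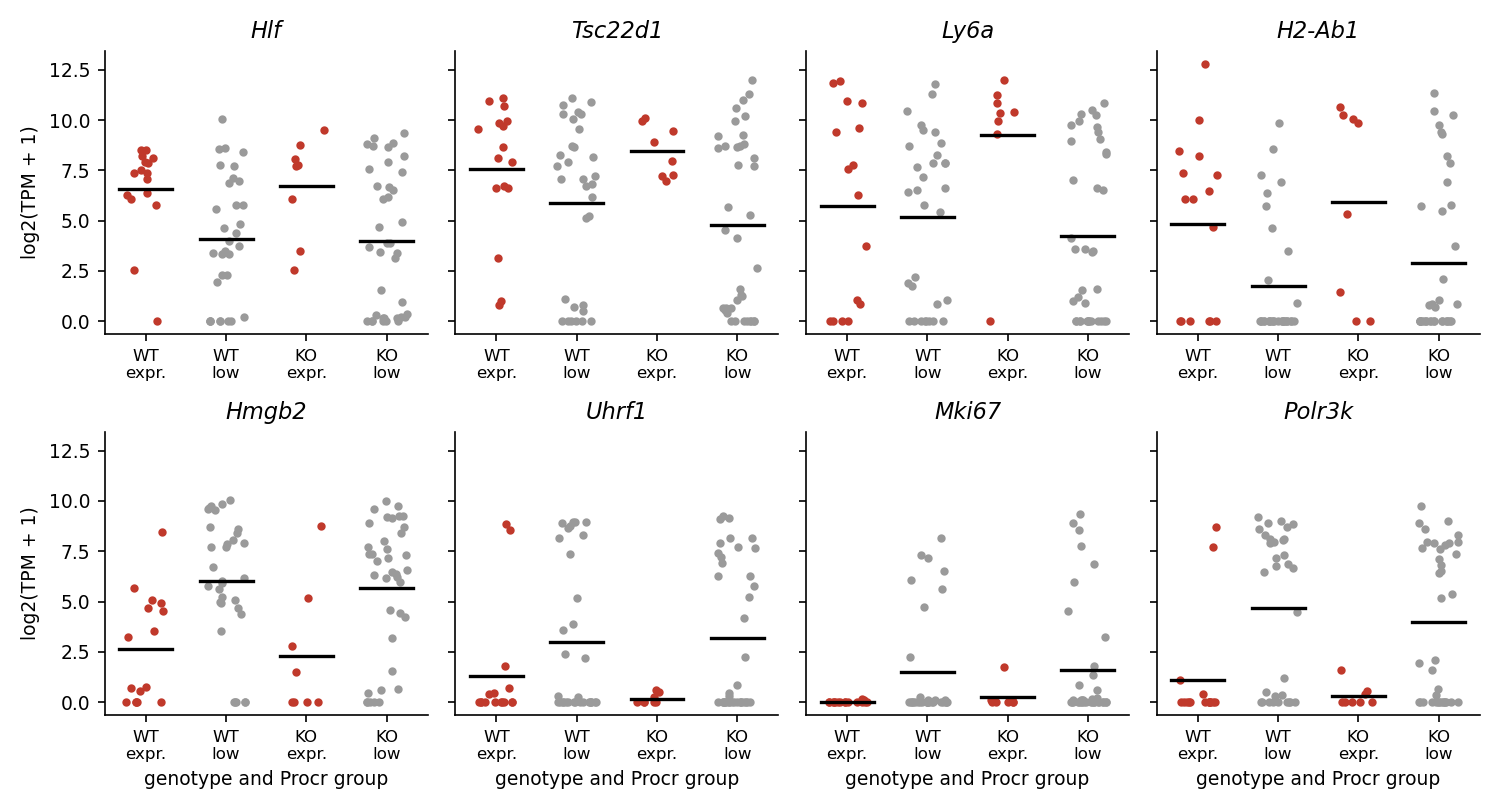
Each point is a cell and its log2(TPM + 1) for 1 of 8 genes, in 4 groups by genotype (WT, KO) and Procr group (expr. in red, low in grey), with black lines at the means. Hlf, Tsc22d1, Ly6a and H2-Ab1 had higher means and Hmgb2, Uhrf1, Mki67 and Polr3k lower means in Procr-expressing cells of both genotypes, and in each panel the points overlap.

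Counted per cell, between 1 and 6 of the 27 mitosis genes reached 5 TPM in Procr-expressing cells, with a median of 3, and between 1 and 27 in Procr-low cells, with a median of 4. The highest Procr-expressing cell sets the comparison here, so that 0 of 24 lie above 6 genes is fixed by that choice, which was made after the data were seen. Above 6 genes lay 14 of 70 Procr-low cells, 7 of 32 in Ski-WT and 7 of 38 in Ski-KO. The typical cell of either group thus had few mitosis genes, and the groups parted in the upper range of Procr-low cells. Detected genes moved with this count, since 8 of the 14 cells also had more than 3060 genes at 5 TPM, the highest number in a Procr-expressing cell. With detected genes and genotype as covariates, 6 of the 22 replication genes were lower with a list median of -0.74, and 2 of the 18 mitosis genes with a median of -0.60, while 6.34% of all genes were lower and their median was -0.0032. Among cells with at most 3060 genes at 5 TPM, 6 of 60 Procr-low cells had more than 6 mitosis genes (10%, 3.76% to 20.5%). These were 1 of 25 in Ski-WT and 5 of 35 in Ski-KO. For the Procr-expressing cells the count was 0 of 24 (0% to 14.2%), again fixed by the choice, and the intervals overlapped. What part the number of detected genes has in the result was not tested further.

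**Figure D4:**
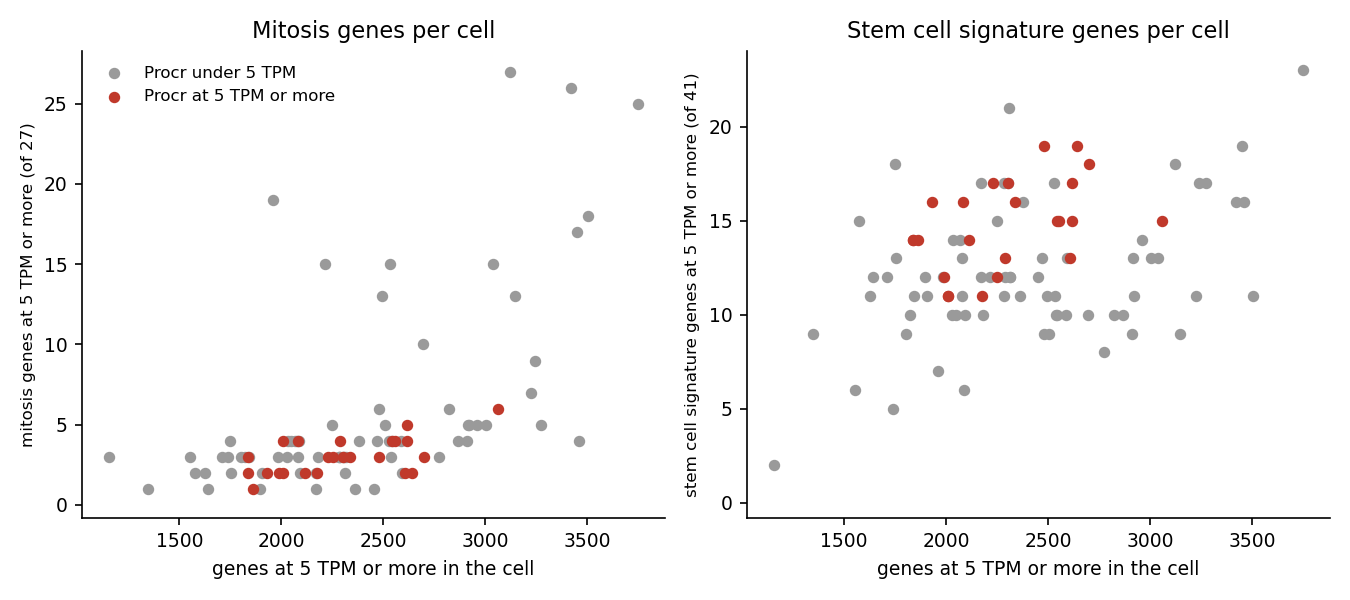
Each point is a cell (red, Procr-expressing; grey, Procr-low), with its genes at 5 TPM or more on the x axis and, on the y axis, how many of 27 mitosis genes (left) or 41 stem cell signature genes (right) reached 5 TPM. Red points reach 6 mitosis genes and 3060 detected genes, and grey points reach 27 and 3750.

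Mki67 or Top2a reached 5 TPM in 3 of 24 Procr-expressing cells (12.5%, 2.66% to 32.4%) and in 25 of 70 Procr-low cells (35.7%, 24.6% to 48.1%). With these 28 cells left out, a choice made after the data were seen and by genes of the mitosis list itself, that list had a median of 0.0056 and 1 of its 12 remaining members was lower. The replication list had a median of -0.54 with 5 of 18 lower, against a median of -0.0023 for all genes. Over all genes, 491 were called lower in this setting, against 643 in the main comparison. The lower median of the mitosis list was thus not seen without these cells, whereas that of the replication list stayed below 0 with a smaller difference.

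Genes of a molecular stem cell signature, a set known to be expressed together in cells that repopulate long-term, were higher in Procr-expressing cells. Of 27 members that passed, 10 (37%) were higher against 5.55% of all genes, 1 was lower, and the median was 0.86 (0.76 in Ski-WT and 0.53 in Ski-KO). The median was 1.13 in prefix 051716 and 0.15 in prefix 051816. Without the cells holding Mki67 or Top2a, 11 of 25 were higher, 0 were lower, and the median was 0.64. Among all genes, 502 were higher and 491 lower in that setting, against 362 and 643 in the main comparison. Procr-expressing cells had between 11 and 19 signature genes at 5 TPM or more with a median of 15, and Procr-low cells between 2 and 23 with a median of 12. The medians were 15 and 12 in Ski-WT and 13.5 and 11 in Ski-KO. The list had been written with earlier results of these data known. Procr was not counted in it, but surface Procr is itself used to enrich for long-term repopulating cells. The set and the grouping are therefore not independent choices, and the count is no independent support.

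Hlf, a transcription factor that keeps stem cells quiescent, was the signature member highest by the naming rule, which ranks by the smaller of the genotype differences. In Ski-WT its lowest, median and highest values were 0, 7.37 and 8.50 in Procr-expressing cells and 0, 3.88 and 10.05 in Procr-low cells. In Ski-KO they were 2.53, 7.72 and 9.50 against 0, 3.78 and 9.36. Ranges overlapped in both genotypes, and the differences were 2.49 and 2.74. Hlf reached 5 TPM in 21 of 24 Procr-expressing cells (87.5%, 67.6% to 97.3%) and 44 of 70 Procr-low cells (62.9%, 50.5% to 74.1%).

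Tsc22d1, a leucine zipper protein induced by TGF-beta, was higher by 1.73 in Ski-WT and 3.72 in Ski-KO. All 8 Procr-expressing Ski-KO cells had it at 6.98 or more, whereas Procr-low Ski-KO cells ranged from 0 to 12.01 with a median of 4.33. Over both genotypes it reached 5 TPM in 22 of 24 cells (91.7%, 73% to 99%) against 43 of 70 (61.4%, 49% to 72.8%). Mllt3, a chromatin reader that maintains stem cells, was higher by 1.84, and its intervals overlapped, with 15 of 24 cells against 29 of 70. Gimap6, a GTPase of blood cells, had 2.14. Gstm1, a glutathione transferase, had 2.06, and Ifitm1, an interferon-inducible membrane protein, had 1.98. Aldh1a1, a retinaldehyde dehydrogenase, was the member that was lower, by -1.89.

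Ly6a, which encodes the gate marker Sca-1, showed the most uneven difference of the signature, 0.59 in Ski-WT and 5.05 in Ski-KO. In Ski-KO its lowest, median and highest values were 0, 10.36 and 12.01 in Procr-expressing cells and 0, 3.46 and 10.86 in Procr-low cells, and 7 of 8 against 20 of 38 cells reached 5 TPM. In Ski-WT the medians were 6.92 and 6.46, with 10 of 16 against 19 of 32 cells. Both Ski-KO prefixes showed the higher level, by 5.02 in 051716 and 5.87 in 051816. Whether the genotypes differ in this respect was not tested, and reads of closely related Ly6 genes may not be fully separated.

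The surface genes of long-term stem cells showed no common direction. Of 21 members, Ly6a included, 2 (9.52%) were higher and 2 (9.52%) lower, against 5.55% and 9.86% of all genes, with a median of -0.04. Kit, the receptor for stem cell factor and a gate marker, was lower by -1.03 in Ski-WT and -2.15 in Ski-KO. Robo4, a guidance receptor of stem cells and endothelium, had 1.07, and Tie1, a receptor kinase of both, had -1.05. Of the gate markers, Kit reached 5 TPM in 18 of 24 Procr-expressing and 61 of 70 Procr-low cells, Slamf1 (Cd150) in 2 and 9, and Cd48 in 0 of all 94.

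Of 22 protein C pathway genes in the table, 9 passed the filter. Of these, 0 were higher and 2 lower, against 5.55% and 9.86% of all genes, and the median was -0.05, so a list of this size shows nothing apart from the background. F2r, the thrombin receptor PAR1, had -1.14 (-2.0 in Ski-WT, -0.28 in Ski-KO) and reached 5 TPM in 2 of 16 against 18 of 32 cells in Ski-WT, but in 2 of 8 against 10 of 38 in Ski-KO. Rac1, a GTPase in the signalling downstream, had -1.02. The GTPases Rhoa and Cdc42 had 0.63 and 0.61, under the limit.

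Class II antigen presentation genes are given as a description, because their list was added after H2-Ab1 had been seen to lead the named genes. Of 6 members that passed, 4 (66.7%) were higher, H2-Ab1 among them, against 5.55% of all genes, and 0 were lower. This count is no independent support for the group. The median was 1.68 (2.36 in Ski-WT, 1.22 in Ski-KO). H2-Ab1, the class II beta chain, had lowest, median and highest values of 0, 6.06 and 12.80 in Procr-expressing and 0, 0 and 9.87 in Procr-low Ski-WT cells. In Ski-KO they were 0, 7.59 and 10.64 against 0, 0.35 and 11.33. The groups overlapped over most of their range. H2-Ab1 reached 5 TPM in 15 of 24 cells (62.5%, 40.6% to 81.2%) against 21 of 70 (30%, 19.6% to 42.1%), and its difference was 3.10 in Ski-WT and 3.04 in Ski-KO.

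Cd74, the invariant chain that escorts class II molecules, had 2.23, H2-Aa, the alpha chain, had 2.13, and H2-Eb1, the other beta chain, had 1.23. In prefix 051816, which had 4 Procr-expressing cells, H2-Aa and H2-Eb1 went the other way, at -0.67 and -0.64. H2-DMa, which helps to load class II molecules with peptide, had -1.45 in Ski-WT and 3.87 in Ski-KO and was not called. When differences were taken within each prefix with equal weight, 2 of the 6 members were higher, beside 288 of the 6519 genes. Of 22 class I presentation genes, 1 was higher and 2 were lower, close to the background shares, and the median was 0.15. H2-T22, a class Ib molecule, had 1.31. The related H2-T9, among the named genes, had 2.86, and reads of these near-identical genes may be split between them.

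Interferon-inducible genes were higher in part. Of 21 members, 5 (23.8%) were higher and 0 lower, against 5.55% and 9.86% of all genes. The list median, however, was -0.08, close to that of all genes. Besides Ly6a and Ifitm1, the higher members were Oasl2, Iigp1 and Gbp7. Oasl2, an oligoadenylate synthetase-like protein, had 2.35, with 4.86 in prefix 051716 and 0.66 in prefix 051816. Iigp1, an interferon-induced GTPase, had 2.97 in Ski-WT and 0.09 in Ski-KO.

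**Figure D5:**
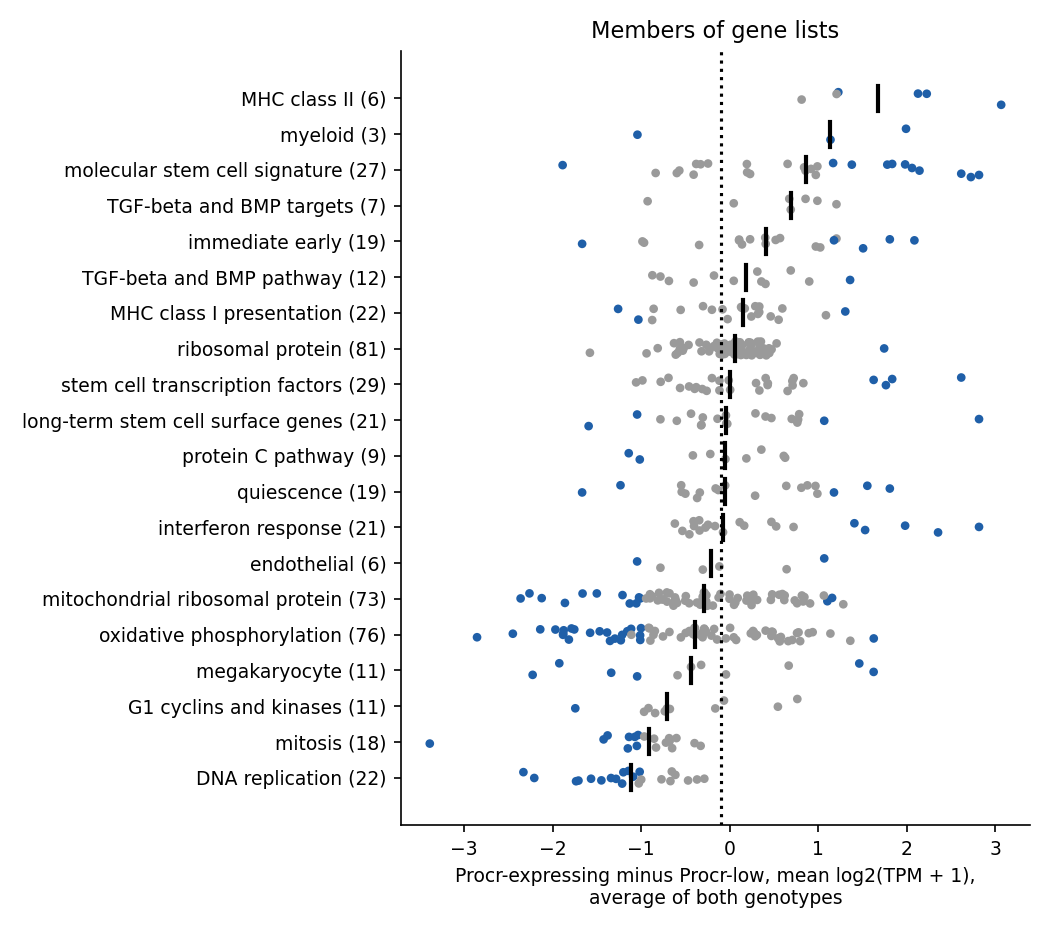
Each point is a gene that passed the filter, placed by its Procr-expressing minus Procr-low difference averaged over genotypes, in rows by gene list with the number of members in parentheses. Blue points were called higher or lower, black bars are list medians, and the dotted line is the median of all genes (-0.10); of the lists drawn, DNA replication (-1.12) and mitosis (-0.91) have the lowest medians.

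Stem cell transcription factors had a median of 0.01. Against 5.55% higher and 9.86% lower among all genes, 4 of 29 (13.8%) were higher and 0 lower. Apart from Hlf and Mllt3 these were Gfi1b, a transcriptional repressor active in stem cells and megakaryocytes, with 1.76, and Nfe2, a megakaryocytic factor, with 1.63. Gfi1b was at 0.03 in prefix 051716 and 3.12 in prefix 051816. Quiescence genes split, with 3 of 19 (15.8%) higher, 2 (10.5%) lower and a median of -0.05. Klf2, a factor that holds cells out of cycle, had 1.81, and Txnip, a thioredoxin inhibitor, had 1.55. Btg2, an antiproliferative gene, had -1.67, and Cdkn2d, an inhibitor of G1 kinases, had -1.23. Of 11 G1 cyclin and kinase genes, 1 (9.09%) was lower (Cks2, -1.74), 0 were higher, and the median was -0.71.

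Immediate early genes, the first to respond to stimulation or handling, had 4 of 19 (21.1%) higher and 1 (5.26%) lower. Among all genes 5.55% were higher and 9.86% lower. The list median was -0.07 in Ski-WT and 0.65 in Ski-KO. Dusp1, a phosphatase of this group, had 0.51 and 3.66, and Fos, an AP-1 subunit, had 0.45 and 2.56. In the TGF-beta and BMP pathway, in which Ski acts, 1 of 12 members (8.33%) was higher and 0 lower. That gene was Smad3, a signal transducer, with 1.15 in Ski-WT and 1.57 in Ski-KO. None of 7 targets was called, and their median was -0.16 in Ski-WT and 1.09 in Ski-KO.

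Genes of mitochondrial energy production had more lower than higher members. Of 76 oxidative phosphorylation genes, 22 (28.9%) were lower and 1 higher, against 9.86% and 5.55% of all genes, with a median of -0.39, and 36 were below 0 in both genotypes. Sdha, the catalytic subunit of complex II, had -2.79 in Ski-WT and -2.92 in Ski-KO and reached 5 TPM in 8 of 24 cells (33.3%, 15.6% to 55.3%) against 44 of 70 (62.9%, 50.5% to 74.1%). Cox6c of complex IV had -2.45, Uqcr10 of complex III -2.14 and Ndufa1 of complex I -1.97. The list median was 0.13 in prefix 051716, where Procr-expressing cells had more detected genes, and -0.93 in prefix 051816, where they had fewer. With detected genes as a covariate it was -0.13, with 13 lower and 8 higher, where 6.34% of all genes were lower and 6.66% higher. What part the number of detected genes has in this list was not tested further, and each Ski-KO prefix had 4 Procr-expressing cells. Of 73 mitochondrial ribosomal protein genes, 11 (15.1%) were lower and 2 higher, with a median of -0.29. That median was -0.48 in Ski-WT but 0.09 in Ski-KO, with 0.38 in prefix 051716 and -0.53 in prefix 051816. The 81 cytosolic ribosomal protein genes had a median of 0.06 with 1 higher (Rps27, 1.74) and 0 lower.

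Outside these groups, the naming rule took genes whose difference had the same sign in both genotypes and all 3 prefixes, ranked by the smaller genotype difference. That condition on the sign held for 1855 of the 6519 genes (28.5%). For every named gene, the agreement between genotypes and prefixes is thus fixed by the choice and is no support. Polr3k, a small subunit of RNA polymerase III, was the lowest. In Ski-WT its lowest, median and highest values were 0, 0 and 8.70 in Procr-expressing and 0, 6.72 and 9.22 in Procr-low cells. In Ski-KO they were 0, 0 and 1.6 against 0, 3.65 and 9.73. Polr3k reached 5 TPM in 2 of 24 Procr-expressing cells (8.33%, 1.03% to 27%) and 38 of 70 Procr-low cells (54.3%, 41.9% to 66.3%), and its difference was -3.57 and -3.65.

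Ruvbl2, an ATPase of chromatin remodelling complexes, had -3.22 and reached 5 TPM in 2 of 24 cells against 33 of 70 (47.1%, 35.1% to 59.4%). Cdca7, a chromatin factor of cycling cells, had -2.40, Rbbp7, a histone chaperone, -2.59, and Nme1, a nucleoside diphosphate kinase, -2.81. Further lower genes were Gtf2a1 (general transcription factor, -2.62), Lgals9 (galectin-9, -2.72), Rsl1d1 (nucleolar protein, -2.37), Phb2 (mitochondrial prohibitin, -2.35) and Mrps17 (mitochondrial ribosome, -2.12).

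Bola1, a mitochondrial protein, was second among the higher genes. In Ski-WT its lowest, median and highest values were 0, 5.76 and 10.78 against 0, 0 and 9.14, and in Ski-KO 0, 7.0 and 8.43 against 0, 0 and 10.11. It reached 5 TPM in 15 of 24 Procr-expressing cells and 19 of 70 Procr-low cells, and its difference was 2.81. Cdk2ap2, a protein related to a Cdk2 inhibitor, had 2.45, Eif2d, a translation factor, 2.41, and Nrip1, a nuclear receptor co-repressor, 2.23. Mea1 (2.32), Frmd8 (2.0) and Gm4951 (1.97) completed the named set.

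Markers of other cell types were present to unequal extents. Of 13 endothelial markers, which matter because Procr is also an endothelial gene, 6 passed the filter. Of these, 1 was higher and 1 lower (16.7% each), against 5.55% and 9.86% of all genes. Procr-expressing cells had 0 to 3 of the 13 at 5 TPM or more and a summed level of 0 to 2794 TPM (median 116.8). Procr-low cells had 0 to 6 and 0 to 2565 TPM (median 104.8). The genotypes went in opposite directions. The medians of Procr-expressing and Procr-low cells were 281.6 and 126.3 TPM in Ski-WT, and 53.5 and 101.5 TPM in Ski-KO. Stromal markers had a summed level of 1.26 to 1075 TPM and 0.28 to 2397 TPM in the same order, with 0 of 3 called. Flt1 and Ramp2 of the endothelial list reached 5 TPM in 0 of the 24 and 0 of the 70 cells, which allows shares of up to 12.5% and 4.29%. They are named because of these counts, and other members of the list reached 5 TPM in cells of both groups. The counts of 0 therefore do not show that endothelial transcripts were absent. Macrophage and mast cell markers did not pass the filter. Erythroid markers had a median summed level of 3556 TPM in Procr-expressing and 3471 TPM in Procr-low cells, and 0 of 4 that passed were called.

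The median summed levels of lymphoid markers differed between the groups. The B cell list held 5 genes, with a summed level of 0 to 7306 TPM (median 340.9) in Procr-expressing cells and 0 to 3161 TPM (median 4.66) in Procr-low cells. Per cell, at most 2 of the 5 reached 5 TPM in either group, with medians of 1 and 0.5. Only 2 of the 5 passed the filter. These were Cd74 and Cd79b, a part of the B cell receptor (1.16), and both were higher, but Cd74 also belongs to class II presentation. Among all genes 5.55% were higher, and a list of 2 genes is too small to set against this share. Other B cell genes did not follow, since Cd79a reached 5 TPM in 0 of 24 Procr-expressing cells and Cd22 in 0 of 24 and 0 of 70. The 12 T and NK cell genes had a summed level of 0 to 2892 TPM (median 1.61) against 0 to 3934 TPM (median 234.3). Their medians were 1.44 against 421.5 TPM in Ski-WT, but 64.5 against 74.3 TPM in Ski-KO. Within Ski-KO they were 287.0 against 42.3 TPM in prefix 051716 and 0.73 against 157.6 TPM in prefix 051816. Lat, an adaptor of T cell and platelet signalling, was called lower at -2.01, although it had 1.32 in prefix 051716. The part of B cell or T cell transcripts in the class II values and in the other results was not tested.

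Megakaryocyte genes went both ways, with 2 of 11 (18.2%) higher and 4 (36.4%) lower, against 5.55% and 9.86% of all genes. The median was -0.44, with 0.47 in prefix 051716 and -1.26 in prefix 051816. Plek, a platelet kinase substrate, had -2.23 and Gp9, a platelet glycoprotein, -1.92, while Nfe2 and Mmrn1 (multimerin, 1.46) were higher. Only 3 of 23 myeloid genes passed the filter. Of these, Prtn3 (proteinase 3) had 1.99 and Csf3r (the G-CSF receptor) 1.14, whereas Lyz2 (lysozyme) had -1.04.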

How the data were processed

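The cells were separated and lysed on Fluidigm C1 chips, and SMARTer cDNA was made into Nextera XT libraries, per the labels' protocols. The tools Bowtie2 and RSEM and the build mm9 are listed with no version in the submitters' processing notes. Values were deposited on a scale read here as log2(TPM + 1), because after back-transformation each cell summed to between 997625 and 999995 TPM. Such values keep no read depth and carry no molecular identifiers, so depth is unknown. The table held 13244 genes for 94 cells. The highest Pearson correlation between cells was 0.53, no cell was filtered out and no doublet caller was run.

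Genotype came from the titles and the prefix from the descriptions. Differences of mean log2 values were taken within genotype and averaged over genotypes. No test was made. Named genes were the 12 highest and 12 lowest with 1 sign in both genotypes and every prefix (at least 3 cells per group), and in each list the 4 largest differences; further genes were chosen after their values were seen. The members and the 38 lists were chosen with earlier results of these data known, and 1 list was added after the data were seen. Shares carry Clopper-Pearson intervals at 95%, and the limit for a count of 0 is 3 cells. Scripts were tested on simulated data. Promoters came from RefSeq on GRCm38.p6, not from the build of the files. Python 3.11.15, numpy 2.4.6, pandas 2.3.3 and scipy 1.17.1 were used.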

Additional observations from a re-analysis of the deposited data

Results flagged for a closer look

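Some lists and genes lay on opposite sides of 0 in Ski-WT and in both Ski-KO prefixes, and none of these differences between genotypes was tested. The median over all genes was -0.18 in Ski-WT and -0.05 in Ski-KO, and all the list medians given here except that of the protein C pathway in Ski-KO lay above it in both genotypes. The median of the protein C pathway was 0.021 in Ski-WT and -0.28 in Ski-KO, that of stem cell transcription factors -0.11 and 0.22, and that of quiescence genes -0.0083 and 0.20. The median of TGF-beta and BMP targets was -0.16 and 1.09, that of immediate early genes -0.074 and 0.65, and that of ribosomal protein genes -0.0046 and 0.11. Smad1, a BMP signal transducer, was level at 0.00023 in Ski-WT and at -1.75 in Ski-KO, and Junb, an AP-1 subunit and TGF-beta target, had -0.17 and 2.58.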

How the results depend on the processing

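No paired analysis was possible because the numbers in the labels name single cells of 1 library each. The 362 higher genes became 573 in Ski-WT alone, 1079 in Ski-KO alone, 603 with only prefix 051716 as Ski-KO, 98 with a pseudocount of 10, 577 by the log2 ratio of mean TPM and 166 with a filter at 50% of cells. The 643 lower genes became 1187 in Ski-WT alone, 1013 in Ski-KO alone, 1090 with only prefix 051816 as Ski-KO, 160 with the pseudocount, 1492 by mean TPM, 314 with the filter and 413 with detected genes as a covariate. Higher and lower genes were thus about balanced with that covariate (434 and 413), with quantile normalization (455 and 472) and without cells holding Mki67 or Top2a (502 and 491). Of the main calls, 326 higher and 400 lower genes remained with the covariate. The ratio of mean TPM moved the median of all genes to -0.35. Without the Mki67 or Top2a cells the mitosis median was 0.0056 and Top2a had 0.044, Iigp1 had -0.34 by mean TPM, and Impact, an imprinted gene, had -0.28 with only prefix 051816; beyond the construction of these settings the cause was not tested. Single-cell dropout and groups of 4 Ski-KO cells per prefix limit all values.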
